A study of Mus musculus with 6 samples.

Results

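The respiratory chain and the ATP synthase were followed in mouse embryonic fibroblasts while delivered transcription factors were turning them toward pluripotency (reprogramming). Members were the genes whose symbol starts with Nduf, Uqcr or Atp5, the genes Sdha, Sdhb, Sdhc and Sdhd, and those named Cox4 to Cox8 followed by a letter, wherever a probe set names exactly 1 gene. The rule found 90 of the 18193 genes on the array: 34 of complex I, 4 of complex II, 8 of complex III, 19 of complex IV, 17 of complex V and 8 assembly factors of complex I (Ndufaf genes), which are not subunits. Ndufa4 and its paralog Ndufa4l2 were placed in complex IV, where the Ndufa4 protein is now known to sit. Among the members, 8 are paralogs used in particular tissues or states (Cox4i2, Cox6a2, Cox6b2, Cox7a1, Cox7b2, Cox8b, Cox8c and Ndufa4l2). A further 10 probe sets that name a member together with another gene were left out, and genes of the pathway without a probe set of their own are not analysed here.

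The fibroblasts, of the strain B6CBAF1/J, received SOX2 and KLF4 with either an OCT4 version called 5R (O(5R)SK) or wild-type OCT4 (O(WT)SK), and were kept in a medium for embryonic stem cells that held serum and leukemia inhibitory factor (LIF). What 5R changes is not given in the labels. RNA was taken on days 3, 5 and 7 and measured on Affymetrix arrays. There are 6 of them, 1 for each combination on each day, so no day has a replicate. The fibroblast markers Col1a1, Col1a2, Col3a1, Thy1, Pdgfrb, Vim and Fn1 were all measured above the filter, with summed intensities of 94803 to 129366 per array. The sum went from 113218 on day 3 to 94803 on day 7 with O(5R)SK, and from 118287 to 129366 with O(WT)SK. Of these 7 markers 0 rose and 1 fell between day 3 and day 7, Thy1 (-0.71 on the log2 scale, adjusted p = 0.0239 in limma). The bright end of the scale was lowest on the array of O(5R)SK cells at day 7, with a highest intensity of 34285 against 40353 to 47606 on the other arrays, and many members lie in that range. Results are therefore given both on the deposited scale and after quantile normalization, which gives every array the same distribution.

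The chain passes electrons from NADH (complex I) and succinate (complex II) through complex III to oxygen at complex IV. Complexes I, III and IV pump protons across the inner mitochondrial membrane, and complex V, the ATP synthase, uses the gradient to make ATP. All members are encoded in the nucleus. Fibroblasts rely on this pathway, and cells that become pluripotent are known to depend more on glycolysis.

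The transcription factor NRF1 is a known regulator of such genes, and the promoters of the 2 members that passed the test over time, Ndufaf4 and Cox6b2, are shown with that of Cox6b1, the widely used counterpart of Cox6b2. Each is the 250 bases before the start of the gene in RefSeq (GRCm38.p6), 5′ to 3′ on the gene's strand, with matches to the motifs searched in capitals.
Ndufaf4 (chr4:24897833-24898082, plus strand): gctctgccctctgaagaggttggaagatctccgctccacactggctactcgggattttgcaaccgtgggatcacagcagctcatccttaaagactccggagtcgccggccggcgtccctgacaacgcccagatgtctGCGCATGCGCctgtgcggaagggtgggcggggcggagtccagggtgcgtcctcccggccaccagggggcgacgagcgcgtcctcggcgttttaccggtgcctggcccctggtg
Cox6b2 (chr7:4753095-4753344, minus strand): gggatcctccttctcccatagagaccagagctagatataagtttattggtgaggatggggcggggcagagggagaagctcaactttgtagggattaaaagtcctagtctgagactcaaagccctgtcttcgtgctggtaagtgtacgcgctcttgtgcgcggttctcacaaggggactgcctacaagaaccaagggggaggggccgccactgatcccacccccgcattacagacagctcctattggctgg
Cox6b1 (chr7:30626115-30626364, minus strand): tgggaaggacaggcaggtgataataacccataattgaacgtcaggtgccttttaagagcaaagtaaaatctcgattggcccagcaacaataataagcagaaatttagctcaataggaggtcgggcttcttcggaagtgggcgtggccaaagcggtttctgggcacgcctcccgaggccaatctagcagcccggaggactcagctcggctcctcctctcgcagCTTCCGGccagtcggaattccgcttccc
The motifs were searched on both strands. The palindromic NRF1 motif is in 14.9% of the 74 members with a promoter in the table and in 3.9% of all 27025 promoters of that length. The ETS family motif CCGGAAG is in 17.6% of the members and 7.1% of all promoters, the E-box CACGTG in 8.1% and 6.0%, and the YY1 motif AAGATGGCG in 0 of the 74 members and 0.6% of all promoters. Ndufaf4 holds 1 NRF1 match that starts 113 bases before the gene, Cox6b1 holds 1 ETS family match, and Cox6b2 holds none of the 4 motifs.

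Most members were nearly level over the time course. Between day 7 and day 3, taking both combinations together, 82 of the 90 members lay within 0.3 on the log2 scale of no change (91.1%), against 62.1% of the 12622 genes tested and 73.6% of the 1584 tested genes at least as bright as the lower quartile of members (an intensity of 3132), which include 67 of the members. The median of all members was -0.04 (lowest -1.30, highest 1.21), against 0.03 over all genes tested, and 0.02 after quantile normalization, so its sign depends on the scaling. By complex the medians were -0.03 for complex I, -0.07 for complex II, -0.03 for complex III, -0.04 for complex IV and -0.03 for complex V, with 0.02, -0.04, 0.02, 0.03 and 0.05 after quantile normalization. The assembly factors had -0.10 (-0.11 after quantile normalization). Within each combination, which is 1 array against 1 and has no test, the median of all members was -0.10 in O(5R)SK cells (-0.14 for the bright genes) and 0.05 in O(WT)SK cells (0.00 for the bright genes). After quantile normalization these medians were -0.04 and 0.06.

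Of the 86 members above the filter on dim genes, 1 rose and 1 fell in limma (adjusted p under 0.05), where 6.52% of all genes tested rose and 3.68% fell. After quantile normalization the same 2 members passed, against 5.13% of all genes higher and 4.07% lower. A trended, robust prior called 5 members (Atp5g1, Cox6a2, Cox6b2, Ndufa13 and Ndufaf4), where it called 22.5% of all genes. With an unadjusted p under 0.05 there were 7 of 86, against 30.6% of all genes. Of the 1584 bright genes, limma called 53 higher and 80 lower, and 145 and 283 had an unadjusted p under 0.05. Both day 7 arrays lay above both day 3 arrays for 12 of the 86 (31.5% of all genes), and below them for 18 (26.2% of all genes). After quantile normalization the first count was 24 over all 90 members, where 27.9% of all genes did the same, and the second 18, against 29.5%. Values went up at each step in both combinations for 4 members (Atp5e, Atp5l, Ndufb2 and Ndufv3), as for 14.9% of all genes, and down for 5 (Cox5a, Cox7c, Ndufaf4, Ndufv2 and Sdhd), as for 12.9% of all genes. After quantile normalization these counts were 13 and 6, against 13.5% and 14.2% of all genes. An example of a level member, chosen after its values were seen, is Ndufb5, an accessory subunit of complex I. It read 6168, 6412 and 6221 on days 3, 5 and 7 with O(5R)SK, and 6280, 6326 and 6547 with O(WT)SK, the smallest span of all members (0.09 on the log2 scale).

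**Figure D1:**
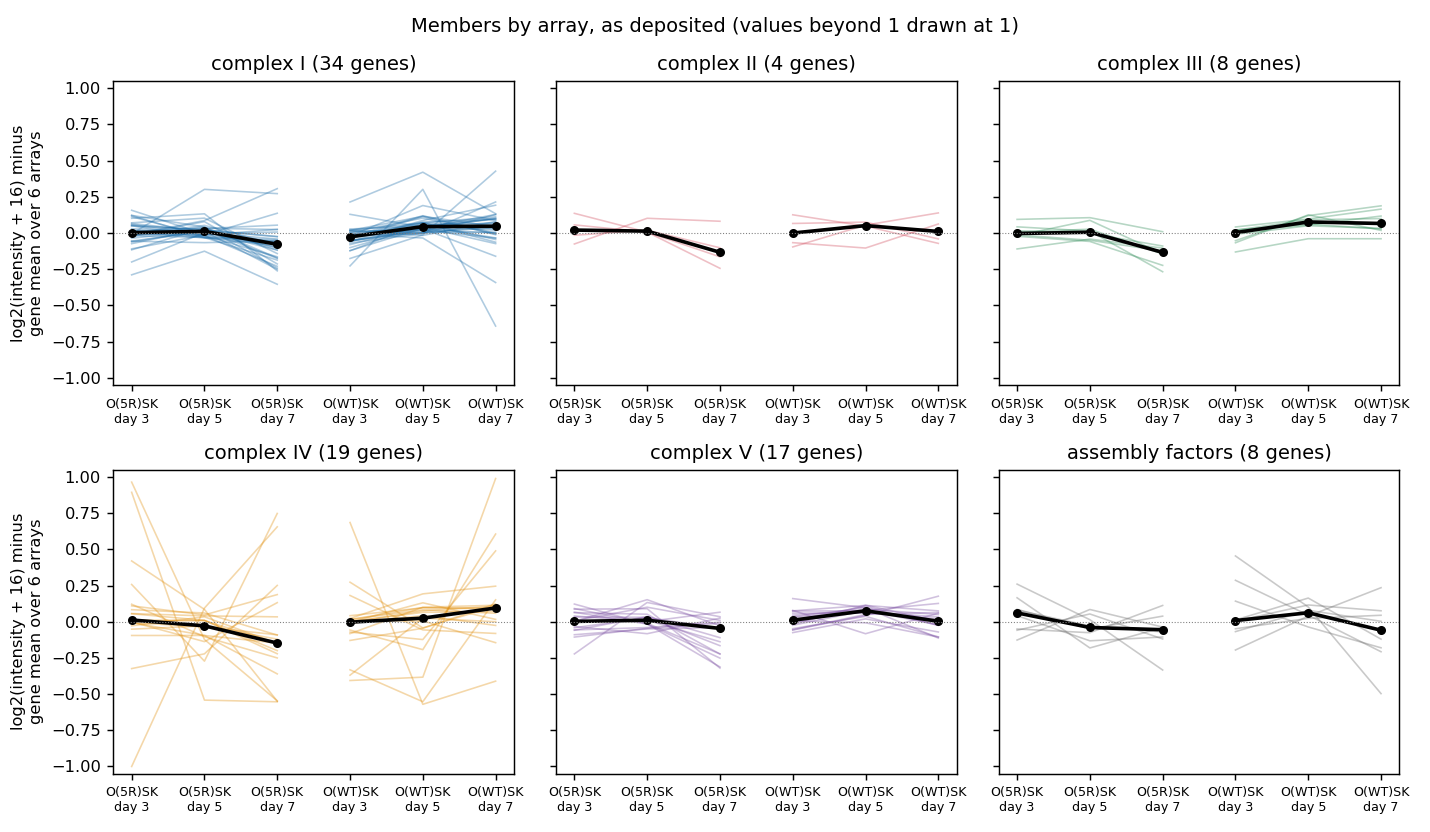
Each thin line is 1 member, drawn as log2(intensity + 16) minus its own mean over the 6 arrays, by array and complex, on the deposited scale; black points are medians over the members of the panel, and values beyond 1 are drawn at 1. Medians stay within 0.15 of 0 on every array, are lowest on the O(5R)SK day 7 array for the 5 complexes, and the widest lines belong to complex IV, which holds all 8 of the tissue paralogs.

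Ndufaf4, a factor needed to build complex I that works with Ndufaf3, fell. It read 1834, 1544 and 1210 on days 3, 5 and 7 with O(5R)SK, and 2101, 1642 and 1079 with O(WT)SK. It was lower at each step in both combinations, and day 7 did not overlap day 3. The day 7 minus day 3 difference was -0.77 on the log2 scale (SE 0.126, 0.59-fold, adjusted p = 0.0343 in limma) and the same after quantile normalization (adjusted p = 0.0365). A second, dimmer probe set of Ndufaf4 gave -0.35, and with the mean of both the value was -0.56 and missed the threshold (adjusted p = 0.0668). The call was also lost without any 1 of the 4 arrays of days 3 and 7 (differences of -0.92 to -0.62), where the fit has fewer residual degrees of freedom.

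The other assembly factors did not pass the test. Ndufaf6, needed early in complex I assembly, read 490.0, 531.0 and 469.3 with O(5R)SK, and 626.7, 527.8 and 440.5 with O(WT)SK (difference -0.28, SE 0.142, adjusted p = 0.264 in limma). The O(WT)SK values span more than those of O(5R)SK. Ndufaf3, the partner of Ndufaf4, went the other way at 0.26 (adjusted p = 0.25), with 760.3, 882.7 and 810.1 in O(5R)SK and 724.2, 854.7 and 981.5 in O(WT)SK cells. Ndufaf7, a methyltransferase of a complex I subunit, had 0.12, and the remaining 4 lay between -0.18 and -0.03.

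Cox6b2, the paralog of Cox6b1 known from testis, rose. It read 1037, 1114 and 1552 over the 3 days with O(5R)SK, and 1238, 1194 and 1834 with O(WT)SK. Days 3 and 5 were close in each combination, and day 7 stood above them in both. The difference between day 7 and day 3 was 0.57 (SE 0.101, 1.48-fold, adjusted p = 0.0409 in limma, and 0.0405 after quantile normalization). Leaving out any single array ended the call, although the difference stayed between 0.53 and 0.61. Such a fit has fewer residual degrees of freedom, so the lost call alone does not show a smaller rise. Its widely expressed counterpart Cox6b1 read 22308, 21615 and 18417 with O(5R)SK, and 21700, 22731 and 22357 with O(WT)SK. The germ cell markers Ddx4, Dazl, Sycp3 and Tnp1 were all below the filter, with summed intensities of 28 to 68 per array.

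Other complex IV paralogs were dim and did not pass the test. Cox6a2, the heart and skeletal muscle form, read 33.5, 97.8 and 151.9 with O(5R)SK, and 86.4, 77.3 and 146.2 with O(WT)SK. Its difference was the largest positive one of the members at 1.21 (SE 0.345, adjusted p = 0.0993 in limma), but 0.60 without the O(5R)SK day 3 array, 1.82 without the O(WT)SK day 3 array and 0.81 with a pseudocount of 64, where it passed (adjusted p = 0.0398). Among striated muscle markers Myh1 rose (1.89, adjusted p = 0.0117) to 996.9 with O(5R)SK and 456.0 with O(WT)SK on day 7, against 275.3 and 104.2 on day 3. Of the 8 muscle markers 6 were below the filter, and the summed intensity of the list was 1092 and 590 on day 7 against 415 and 229 on day 3 in O(5R)SK and O(WT)SK cells. Without Myh1 the other 7 markers summed to 95 and 134 on day 7 against 140 and 125 on day 3. The other marker above the filter, Ckm, had -0.02 (adjusted p = 0.935), and the median of the list was -0.15. The part of muscle-like cells in the Cox6a2 value was not tested.

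Cox4i2, an oxygen-regulated form of subunit 4, read 53.8, 32.3 and 82.0 with O(5R)SK, and 30.4, 23.8 and 48.8 with O(WT)SK. These are near the filter intensity of 33.5, and the difference of 0.49 (SE 0.126, adjusted p = 0.0825) was 0.28 with a pseudocount of 64. The ordinary form Cox4i1 read 17137, 16784 and 16159 with O(5R)SK, and 16253, 18446 and 18620 with O(WT)SK. Cox7a1 of heart and skeletal muscle (0.06, or -0.07 after quantile normalization) and Cox8c, known from testis (0.22), stayed between 109.5 and 168.6 on every array. Below the filter, and so not tested, were Cox7b2 (33.8, 7.5 and 1.5 with O(5R)SK, 25.1, 1.2 and 3.2 with O(WT)SK), Cox8b, which read at most 8.8, Ndufa4l2, a target of hypoxia-inducible factor that read 49.4, 8.2 and 8.0 with O(5R)SK against 10.6, 11 and 53.9 with O(WT)SK, and the complex I subunit gene Ndufb4 at 9.7 to 33.4. The 2 combinations thus gave Ndufa4l2 in opposite orders, on values at the floor.

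Over both combinations together, ordinary complex IV subunits other than Cox7c differed little. Cox6a1, the widely expressed form of subunit 6a, Cox7a2, Cox7a2l, which helps join complexes III and IV, and Cox8a differed between the days by -0.07 to 0.04, and Ndufa4 by -0.16. On the deposited scale each of these joins a negative value in O(5R)SK and a positive one in O(WT)SK cells. The most unlike were those of Cox6a1 (-0.35 and 0.22), Cox7a2l (-0.18 and 0.25) and Ndufa4 (-0.37 and 0.05). Cox7c read 257.8, 201.1 and 123.9 with O(5R)SK, and 216.1, 180.8 and 177.5 with O(WT)SK, lower at each step in both combinations (difference -0.62, SE 0.201, adjusted p = 0.127 in limma). The second Cox7c probe set, at 53 to 100, gave 0.24, so the probe sets disagree in sign.

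**Figure D2:**
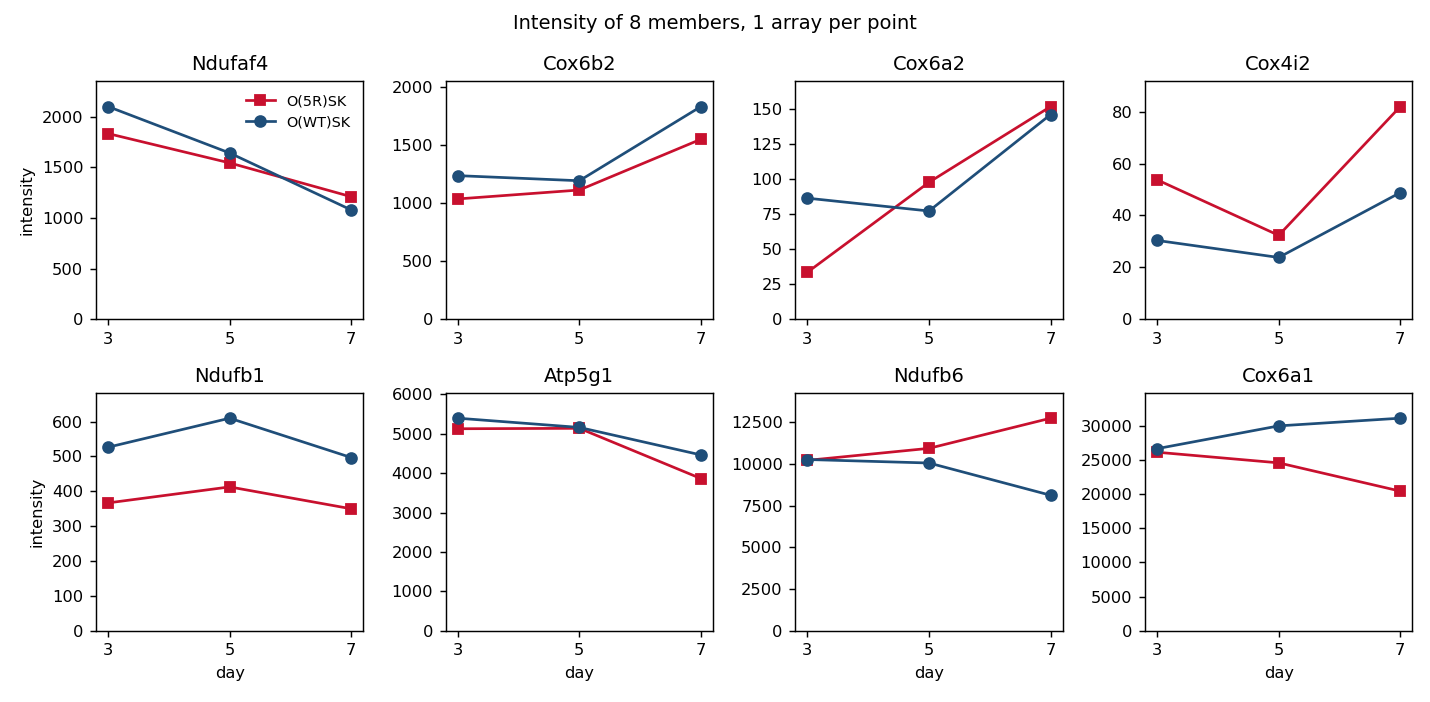
Intensity (linear axis from 0) against day for 8 members, 1 array per point, with O(5R)SK as squares and O(WT)SK as circles. Ndufaf4 falls and Cox6b2 is highest on day 7 in both combinations, Ndufb1 lies lower with O(5R)SK on all 3 days, and Ndufb6 and Cox6a1 part between the combinations by day 7.

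In complex V the c subunit, which forms the rotating ring in the membrane, is encoded by Atp5g1, Atp5g2 and Atp5g3. Atp5g1 read 5125, 5136 and 3862 with O(5R)SK, and 5393, 5159 and 4461 with O(WT)SK. Day 7 was below day 3 in both combinations, with a difference of -0.34 (SE 0.105, adjusted p = 0.115 in limma), the largest in complex V. The test was passed only with a trended, robust prior (adjusted p = 0.0174), and a second, dim probe set turned the mean of both to 0.09. Atp5g3 had -0.23 (adjusted p = 0.265) and Atp5g2 read 5863 to 6753 over the arrays. The largest positive differences were those of Atp5e, the epsilon subunit (0.16, adjusted p = 0.328), and Atp5md, a small subunit also called DAPIT (0.12, adjusted p = 0.64). The subunit genes Atp5k and Atp5l, for subunits e and g, read 8558 to 9806 and 9722 to 11297.

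In complex I the ends of the range were Ndufa13, an accessory subunit also known as GRIM-19, and Ndufv2, an iron-sulfur subunit of the NADH-binding arm. Ndufa13 read 9171, 10559 and 10235 with O(5R)SK, and 9326, 10442 and 14176 with O(WT)SK. The O(WT)SK day 7 array was thus apart from the other 5, and the difference of 0.38 (SE 0.156, adjusted p = 0.187 in limma) passed only with a trended, robust prior (adjusted p = 0.0434). Ndufv2 was lower at each step in both combinations, at 8534, 7674 and 6888 with O(5R)SK and 8581, 8071 and 7455 with O(WT)SK. Its difference was -0.26 (SE 0.096, adjusted p = 0.162), and its 2 other probe sets gave -0.27 and -0.19. Ndufb2 was higher at each step (0.22, adjusted p = 0.207) and Ndufb10 had -0.14, both accessory subunits of the membrane arm. The brightest complex I probe set, that of Ndufa1, read 12829 to 14528.

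The 4 genes of complex II split, judged by the brightest probe set of each. Sdhb, the iron-sulfur subunit, had -0.24 (SE 0.113, adjusted p = 0.226) and Sdhd, a membrane anchor, -0.21 (SE 0.094, adjusted p = 0.216). Day 7 was below day 3 in both combinations for each: Sdhb read 6419 and 7391 on day 7 against 8357 and 7960 on day 3 in O(5R)SK and O(WT)SK cells. A second, dimmer Sdhd probe set gave 0.17, so the Sdhd probe sets disagree in sign. Over the alternative settings the Sdhd difference ran from -0.31 to -0.02. Sdhc, the other anchor, had 0.14 (adjusted p = 0.426) and the flavoprotein Sdha 0.07 (adjusted p = 0.714). None of the 4 passed the test in limma, where 0 had an unadjusted p under 0.05. In complex III all 8 genes lay between -0.11 for Uqcrb, a small subunit near the quinone site, and 0.12 for Uqcr11, another small subunit. The core protein Uqcrc2 had 0.00 and the Rieske iron-sulfur protein Uqcrfs1 -0.07. These values join opposite signs, on the deposited scale and with 1 array against 1. In O(WT)SK cells 8 of the 8 were higher on day 7 (0.01 to 0.24), as were 776 of the 1584 bright genes. In O(5R)SK cells 7 were lower (lowest -0.31), as were 1082 of the bright genes.

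**Figure D3:**
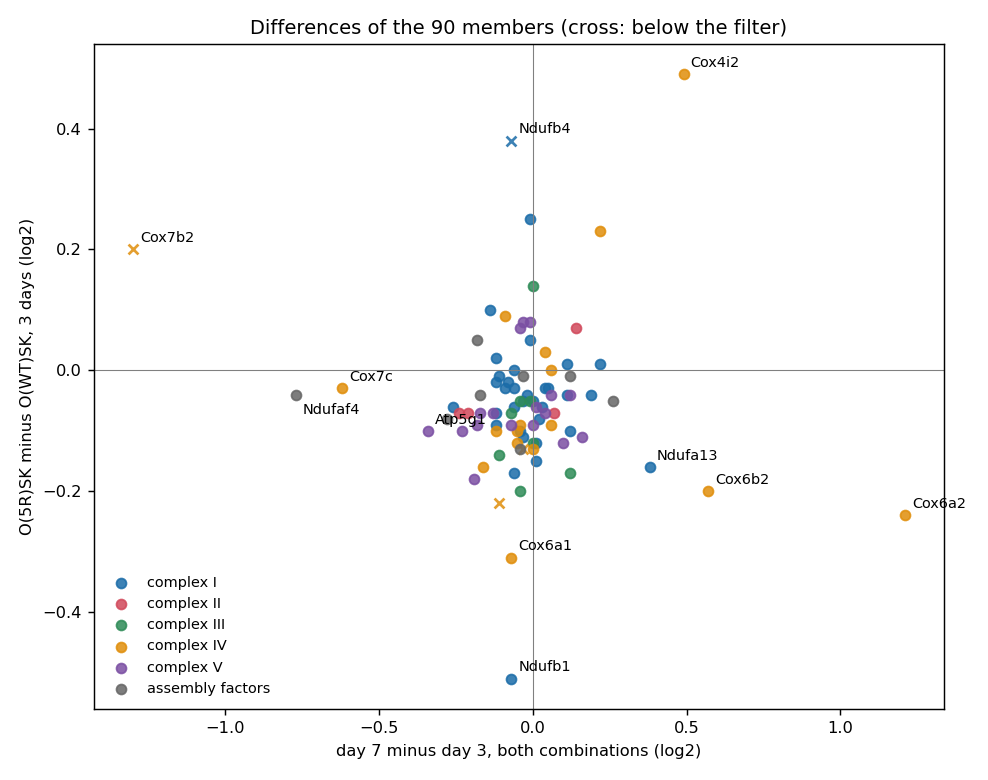
Each point is 1 member, with the day 7 minus day 3 difference over both combinations on the x axis and the O(5R)SK minus O(WT)SK difference over 3 days on the y axis, both in log2; colours give the complex and crosses mark members below the filter. Most points crowd near 0, and the named ones lie beyond 0.3 on at least 1 axis.

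Lists of other genes of the pathway, which are no members, were read for the same days, over which 3.68% of all genes tested fell (4.07% after quantile normalization). Of 30 tested assembly factors outside the rule, 0 rose and 1 fell, Tmem70, which helps assemble the ATP synthase (-0.56, adjusted p = 0.036). Its values were 5106, 4145 and 3521 with O(5R)SK and 5244, 4149 and 3493 with O(WT)SK. Of 7 electron carriers and reductases 1 fell, Etfb, a subunit of the electron transfer flavoprotein (-0.53, adjusted p = 0.0498, but 0.0533 after quantile normalization), while Cyc1 of complex III had -0.17 and cytochrome c, Cycs, -0.29. Of 12 tested genes of the tricarboxylic acid cycle 1 fell, Idh3a (-0.55, adjusted p = 0.0449, but 0.0504 after quantile normalization). Of 15 tested regulators of mitochondrial gene expression 2 fell. Gabpb1, a subunit of the ETS factor GABP, read 347.3, 215.6 and 193.8 with O(5R)SK and 370.3, 227.7 and 212.6 with O(WT)SK (-0.77, adjusted p = 0.02). Pprc1, a coactivator, had -0.50 (adjusted p = 0.046), while Nrf1 (-0.63, adjusted p = 0.138) and Ppargc1b (-1.56, adjusted p = 0.0601) missed the threshold. Ppargc1b was dim, at 6.74 to 83.55 over the arrays. Other genes of these lists went up without passing the test. The largest positive values among the regulators were those of Esrrb (0.68, on dim values of 34.8 to 89.1) and Gabpa (0.33). Among the assembly factors they were those of Tmem126b (0.40) and Sdhaf4 (0.29). Etfdh (0.27) was highest of the carriers and reductases, and Idh2 (0.24) of the tricarboxylic acid cycle. Of 5 tested inhibitors, uncouplers and carriers 0 passed. Tmem70, Gabpb1 and Pprc1 also passed after quantile normalization, and Etfb and Idh3a did not. The medians of these lists were -0.05, -0.17, -0.16, -0.14 and -0.07, in the order given.

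Macrophage markers fell over the same days, 5 of 5 tested (Lyz2, Cd68, Adgre1, Csf1r and Ptprc), with a summed intensity of 2725 and 3200 on day 7 against 7654 and 8172 on day 3 in O(5R)SK and O(WT)SK cells. After quantile normalization 3 of the 5 passed, and Cd68 (adjusted p = 0.0504) and Ptprc (adjusted p = 0.0509) did not. Their part in the values above was not tested. In such bulk RNA, fewer cells of a type and less RNA per cell cannot be told apart.

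Setting O(5R)SK against O(WT)SK on the same days asks whether the OCT4 version alters these genes. No member passed the test: limma called 0 of the 86 members above the filter and 0 of all genes tested (0% higher and 0% lower), and with an unadjusted p under 0.05 there were 2 members, against 9.35% of all genes. Of the 1584 bright genes, 15 were higher and 25 lower with such a p, a smaller share than over all genes. A trended, robust prior called 1 member, Ndufb1, where it called 0.65% of all genes. Negative values were found for 71 of the 90 members, with a median of -0.06 (lowest -0.51, highest 0.49), against 1086 of the 1584 bright genes (median -0.05) and 6714 of all 12622 (median -0.01). After quantile normalization 66 members were negative, with a median of -0.04. Values of all 3 O(5R)SK arrays lay below all 3 O(WT)SK arrays for 9 of the 86 (4.71% of all genes) and above them for 3 (4.63% of all genes). After quantile normalization these counts were 9 and 4 of the 90 members, against 5.04% and 4.49% of all genes. On each day O(5R)SK was lower than O(WT)SK for 22 of the 90 members (17.9% of all genes) and higher for 7 (15.9% of all genes). The medians by complex were -0.04 for complex I, -0.07 for complex II, -0.10 for complex III, -0.10 for complex IV and -0.07 for complex V, with -0.02, -0.06, -0.05, -0.06 and -0.05 after quantile normalization.

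Day 7 carried most of this shift. The median of all members was 0.02, -0.04 and -0.15 on days 3, 5 and 7, and 0.01, -0.02 and -0.08 after quantile normalization, while the bright genes had 0.02, -0.04 and -0.13, and 0.00, -0.02 and -0.06. On day 7, where 1 array stands for each combination and no test is possible, 68 of 90 members were lower with O(5R)SK (75.6%), against 71.1% of the bright genes. On the deposited scale the lowest day 7 medians were those of complex IV (-0.22) and complex III (-0.21). After quantile normalization they were -0.10 and -0.13, and complex II, at -0.12, lay between them. Without either day 7 array the median over all members was -0.02. The assembly factors had 0.08 on day 7. The low bright end of the O(5R)SK day 7 array moves with these values, and its part beyond quantile normalization was not tested.

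**Figure D4:**
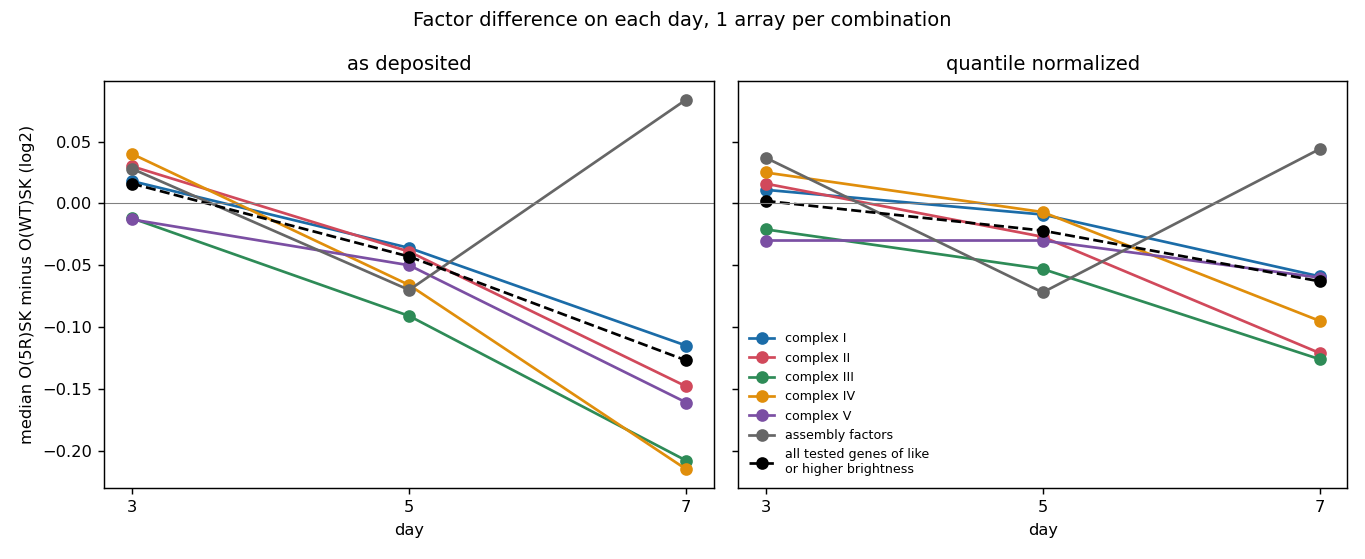
Median O(5R)SK minus O(WT)SK difference (log2) on days 3, 5 and 7 for each complex and the assembly factors (solid lines) and for the 1584 tested genes of like or higher brightness (dashed), on the deposited scale (left) and after quantile normalization (right), 1 array per combination and day. All 5 complexes are negative on day 7 in both panels, and so are the bright genes, and the values are smaller after quantile normalization.

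Ndufb1, a small accessory subunit of the membrane arm of complex I, had the lowest factor difference. It read 366.8, 412.7 and 349.9 on days 3, 5 and 7 with O(5R)SK, and 526.5, 609.8 and 496.9 with O(WT)SK. The 2 combinations did not overlap and kept nearly the same distance on each day. The difference was -0.51 (SE 0.077, 0.70-fold) and missed the threshold in limma (adjusted p = 0.284); over the alternatives it ran from -0.55 to -0.46 and adjusted p from 0.0494 to 0.558. Ndufb6, a neighbour in the membrane arm, had the highest value among complex I members above the filter at 0.25 (SE 0.153, adjusted p = 0.652). Its intensity was 10214, 10934 and 12741 with O(5R)SK against 10264, 10055 and 8122 with O(WT)SK, equal on day 3 and apart on day 7. A second Ndufb6 probe set gave 0.02. Ndufb10 had 0.10 and Ndufs1, the largest iron-sulfur subunit, -0.17.

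In complex IV Cox4i2 was higher with O(5R)SK on each day at its dim level (0.49, SE 0.103, adjusted p = 0.368, and 0.28 with a pseudocount of 64), and Cox8c had 0.23 (adjusted p = 0.614). Cox6a1 was lower with O(5R)SK on each day, at 26115, 24561 and 20424 against 26637, 29968 and 31094 with O(WT)SK. Its difference was -0.31 (SE 0.134, adjusted p = 0.58 in limma) and -0.17 after quantile normalization, and its second probe set gave -0.02. Cox6a2 had -0.24 (adjusted p = 0.791), which turned to 0.17 without either day 3 array.

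In the other complexes the first probe sets gave values between -0.20 and 0.14. Uqcrq, a small subunit of complex III, was lower with O(5R)SK on each day (-0.20, SE 0.099, adjusted p = 0.61 in limma), as was Uqcr11 (-0.17), while Uqcrc2 was higher (0.14, adjusted p = 0.65). A second Uqcrc2 probe set gave -0.09. In complex V Atp5d, the delta subunit, had -0.18 (-0.14 after quantile normalization) and Atp5l -0.12. Atp5h and Atp5o, which belong to the stalk that holds the catalytic head in place, had 0.08 each. Other probe sets differed from these: that of Atp5o, an _x_at set at 1339 to 3605, gave 0.61, and that of Atp5h -0.08. With the mean of probe sets Atp5o had 0.35 (adjusted p = 0.502) and Atp5h 0.0. In complex II Sdhb and Sdhd had -0.07 each and Sdhc 0.07. Among the assembly factors Ndufaf8 had -0.13, Ndufaf6 -0.08 and Ndufaf2 0.05.

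The difference of slopes, the O(5R)SK change over the 4 days from day 3 to day 7 minus that of O(WT)SK, passed the test for 0 of 86 members and 0% of all genes in limma. With an unadjusted p under 0.05 there were 3 members, against 7.52% of all genes: Ndufb6 (0.66), Cox7c (-0.71) and Cox6a1 (-0.58), with an adjusted p of 0.647 each. After quantile normalization 2 members were under that p, against 7.24% of all genes, and Cox6a1 had -0.27. When the probe sets of a gene were averaged, 0 of 85 tested members were under that p, so these 3 rest on the first probe sets. With a trended, robust prior 21 of the 86 members were, against 9.87% of all genes, and 0 passed after adjustment. Of the 1584 bright genes, 21 with a positive and 31 with a negative value were under that p in the main fit. Their share with the trended, robust prior was not counted. The median difference of slopes was -0.14 for all 90 members and -0.14 for the bright genes. After quantile normalization these medians were -0.08 and -0.06. On the deposited scale it was negative for 69 of the members and for 1163 of the 1584 bright genes.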

How the data were processed

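The deposited values are linear intensities for each probe set of each array. Per the submitters' processing notes the authors used affy. How probes were summarised, how background was removed and which version ran is not given in the sources used here. Each array of deposited values has a 2% trimmed mean of 500. Of 45101 probe sets 34958 name 1 gene (annotation of the platform), 34754 of them found in RefSeq (GRCm38.p6), and 64 controls were left out. Intensities of different probe sets are not comparable as transcript levels. Of the members' probe sets, 13 end in _s_at and 4 in _x_at, and may see related sequences. The number of arrays limits the precision.

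Values were log2(intensity + 16), so folds of dim genes are understated. Per gene the probe set with the highest mean was used. Genes with a mean above the 40th percentile of all probe sets (an intensity of 33.5) were tested with limma 3.58.1 in R 4.3.3, with Benjamini-Hochberg adjustment over all 12622 genes. The fit had factor combination and day (3 levels) as terms and 2 residual degrees of freedom. Slopes were compared in a fit with day as a number, crossed with combination. With no replicates, p-values reflect how far these 6 arrays scatter, which may be technical. In the fit with day as 3 levels, a change over the days that differs between the combinations also enters this scatter. The fit cannot tell these apart. The fit with day as 3 levels was also tested on simulated data with independent noise. Those data held no change that differs between the combinations, so they do not show how the fit behaves with such scatter. Python 3.11.15, pandas 2.3.3 and matplotlib 3.10.9 were used for the rest.

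Members, lists and tests were chosen with earlier results of these data known, and lists got no test of their own. Named members are, in each complex and comparison, the 2 largest differences in each direction among members above the filter, the brightest probe set of each complex, listed paralogs and members past the test; from other lists, genes among the 3 largest in a direction. Not all that the rule allows were named. Pprc1, Cyc1, Ndufb5, Ndufb4, members listed by a shared pattern and the second probe sets were chosen after their values were seen.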

Additional observations from a re-analysis of the deposited data

How the results depend on the processing

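Over 13 alternatives, the count of members past the test for O(5R)SK against O(WT)SK was 0 except for 1 with a trended, robust prior. For day 7 against day 3 the count of 2 was 1 with a common median, 1 when probe sets of a gene were averaged, 0 when dim genes were kept, 3 with a pseudocount of 64 (with Cox6a2 added), and 5 with a trended, robust prior. With 1 array left out it ran from 0 to 2, where the 2 without either day 5 array were Cox6a2 and Ndufaf4, not Cox6b2. Fits with 1 array left out have fewer residual degrees of freedom, so fewer calls there need not mean smaller differences. The fall of Ndufaf4 and the rise of Cox6b2 kept their direction in all 13 alternatives. Changing the filter or the prior cannot alter a difference, nor can averaging probe sets for Cox6b2, which has 1. Those alternatives thus say nothing about direction. A common median moved the median of all genes by -0.10 for day 7 minus day 3. Over the alternatives the median of all members ran from -0.104 to -0.018 for O(5R)SK minus O(WT)SK and from -0.137 to 0.032 for day 7 minus day 3. Some small values turned sign. For O(5R)SK minus O(WT)SK, Sdhd gave 0.08 with the mean of probe sets. With 1 array left out the same difference ran from -0.5 to 0.17 for Cox6a2, -0.03 to 0.1 for Ndufaf2, -0.17 to 0.05 for Ndufaf6 and -0.14 to 0.0 for Sdhb. For day 7 minus day 3, the mean of probe sets gave 0.09 for Atp5g1 and -0.02 for Uqcrc2, quantile normalization -0.07 for Cox7a1, and a common median -0.04 for Cox7a1, -0.03 for Sdha and -0.1 for Uqcrc2. With 1 array left out it ran from -0.08 to 0.32 for Atp5md, -0.06 to 0.18 for Cox7a1, -0.33 to 0.02 for Ndufa4, -0.06 to 0.21 for Sdha, -0.28 to 0.06 for Uqcrb, -0.07 to 0.07 for Uqcrc2 and -0.15 to 0.0 for Uqcrfs1. Counting Ndufa4 and Ndufa4l2 in complex I, chosen after seeing the data, left its medians at -0.05 and -0.03. The causes were not tested. The labels carry no replicate numbers to pair by, so arrays were matched by day only. The combinations were compared within days, since day is a term of the fit.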

Other observations

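Of the members, 50 have a second probe set above the filter. The second probe set gave the same sign as the first for 30 of the 50 in the day 7 minus day 3 difference and for 33 in the O(5R)SK minus O(WT)SK difference, with median gaps of 0.08 and 0.07 on the log2 scale. Of the 7 of these members whose first probe set differed by at least 0.2 between the days, 3 (Ndufaf4, Ndufv2 and Cox8c) had a second probe set that moved at least 0.1 the same way. Of 4 that differed by at least 0.2 between the combinations (Cox6a1, Cox8c, Ndufb6 and Uqcrq), 2 did.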
